A study of Homo sapiens with 12 samples.

Results

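The PDE6 family is the group of genes for the cyclic GMP phosphodiesterase of retinal rods and cones. All 6 of its subunit genes were read here: PDE6G, PDE6H, PDE6A, PDE6B, PDE6C and PDE6D. Each was matched by its symbol to 1 feature of the array, so the family holds 6 of 45033 features and 6 of 17185 named genes. PDE6G was picked because it was already known to rise with the compound INZ in these arrays. Its change with INZ is therefore described without a test, and the other 5 subunits were tested to ask whether they shared it. The cells were HCT116, a human colon cancer line, with no active p53 (p53-/-) or with wild-type p53 (p53+/+). INZ, a small molecule used as a p53 activator, was given at 4 µM and RNA was taken after 18 hours. The 4 groups were p53-/- INZ, p53-/- DMSO, p53+/+ INZ and p53+/+ DMSO, with 3 arrays called biological replicates in each. DMSO is the solvent control. Each genotype was 1 cell line, so a difference between the genotypes is also a difference between 2 lines, and p values measure only the spread between these cultures. Values are log2 intensities after RMA, which removes background, brings the arrays to a common scale and sums up the probes of each feature. A step of 1 is a 2-fold change, CI stands for the confidence interval of limma's estimate, and features are called where limma's adjusted p is under 0.05. The median feature had a mean log2 intensity of 6.41. Each feature has its own probes, and an intensity reflects them as well as the RNA, so the subunits cannot be ranked by RNA abundance.

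In photoreceptors, light activates opsins, opsins activate the G protein transducin, and transducin releases PDE6 from inhibition. PDE6 then breaks down cyclic GMP, and the cation channels that cyclic GMP holds open close. The rod enzyme pairs the catalytic subunits encoded by PDE6A and PDE6B, and the cone enzyme is a dimer of the PDE6C product. PDE6G and PDE6H encode the small inhibitory gamma subunits of rods and cones. PDE6D encodes a carrier that binds prenylated proteins, PDE6 among them, and it is expressed in many tissues outside the retina.

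The arrays were not equally alike. On the first principal component, which held 41.3% of the variance, p53+/+ DMSO replicate 1 stood at -175.7 and p53+/+ INZ replicate 3 at 92.4, away from the other arrays of their groups. Where leaving them out changed the sign or the call of a subunit's value, the value without them stands beside it or in the closing section. The same was done for the list counts called with INZ and for some of the other genes, but not for all. TP53I3, a p53 target that checks the genotype labels, had log2 intensities of 13.90 to 14.20 in p53+/+ cells with INZ, against 9.79 to 10.13 with DMSO. In p53-/- cells it had 8.42 to 9.51 with INZ, against 9.15 to 9.55 with DMSO. Of 9 markers of colon epithelium 6 lay above the median feature, EPCAM, CDH1, KRT8, KRT18, KRT19 and CDX2, while CDX1, VIL1 and LGALS4 lay below it. By definition, as many features lie above the median feature as below it. Of 10 photoreceptor markers 2 did, CRX and ROM1, and the others, SAG, RCVRN, GNAT1, NRL, PDC, ARR3 and PRPH2 among them, lay below it. Summed photoreceptor marker intensity was 524 to 718 with INZ in p53-/- arrays, against 555 to 750 with DMSO. In p53+/+ arrays it was 685 to 780 with INZ, against 644 to 1415 with DMSO. None of the 10 passed the test in either genotype, where 1.48% of all features did in p53-/- and 0.862% in p53+/+ cells. By unadjusted p under 0.05 it was also 0 of 10 in each, against 13.6% and 14.4% of all features. In RNA from whole cultures, a change in the share of cells that express a gene cannot be told apart from a change in its RNA per cell.

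The subunit genes lie on different chromosomes. In GRCh38.p14, PDE6A is at chr5:149857953-149944793, PDE6B at chr4:625573-670782, PDE6C at chr10:93612537-93666010, PDE6D at chr2:231732433-231781282, PDE6G at chr17:81650459-81663127 and PDE6H at chr12:14973042-14981865. The RefSeq promoter windows, from 250 bases before to 50 bases after a gene's start, matched 5 of the 6 genes, all but PDE6G, with 6 windows. Both strands were searched for TAATCC, the core bound by the photoreceptor factor CRX, which 6.35% of 34796 windows of all genes held. It was found in 2 of the 5 genes with a window, 72 bases upstream of the start of PDE6A and 43 bases upstream of that of PDE6C. PDE6D held none. Its window held the letters of a cyclic AMP response half-site, TGACGT, 125 bases upstream, and of a CCAAT box on both strands, 68 and 45 bases upstream. TGACGT was in 7.97% and CCAAT in 34.6% of all windows. CCAAT was also in the windows of PDE6C and PDE6H. GGGCGG, a GC box, was in both windows of PDE6B and in 44.9% of all. GCGTG, the core bound by the aryl hydrocarbon receptor, was in 1 window of PDE6B, 12 bases downstream of the start, and in 36.4% of all. The E-box CACGTG was in none of the 6 windows and in 7.20% of all. The letters of a TATA box, TATAAA, were likewise in none of the 6 and in 11.6% of all. These matches are letters in a window and not shown binding sites. The windows of 2 dim catalytic subunits and of the bright carrier are shown so that they can be compared. The capitals mark TAATCC in PDE6A and PDE6C, and TGACGT and both CCAAT matches in PDE6D, the last of which reads ATTGG on this strand.
PDE6A, chr5:149944744-149945043, minus strand: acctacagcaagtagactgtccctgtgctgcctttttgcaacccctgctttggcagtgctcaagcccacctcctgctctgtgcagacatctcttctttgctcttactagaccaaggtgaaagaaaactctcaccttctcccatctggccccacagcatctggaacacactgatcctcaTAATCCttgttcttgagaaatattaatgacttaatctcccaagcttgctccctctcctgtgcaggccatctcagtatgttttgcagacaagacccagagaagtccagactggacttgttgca
PDE6C, chr10:93612287-93612586, plus strand: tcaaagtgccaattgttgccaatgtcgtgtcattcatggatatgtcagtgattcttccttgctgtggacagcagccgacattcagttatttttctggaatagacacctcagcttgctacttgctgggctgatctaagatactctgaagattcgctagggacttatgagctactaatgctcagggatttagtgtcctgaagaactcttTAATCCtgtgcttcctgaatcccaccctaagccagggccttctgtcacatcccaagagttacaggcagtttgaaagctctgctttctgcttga
PDE6D, chr2:231781233-231781532, minus strand: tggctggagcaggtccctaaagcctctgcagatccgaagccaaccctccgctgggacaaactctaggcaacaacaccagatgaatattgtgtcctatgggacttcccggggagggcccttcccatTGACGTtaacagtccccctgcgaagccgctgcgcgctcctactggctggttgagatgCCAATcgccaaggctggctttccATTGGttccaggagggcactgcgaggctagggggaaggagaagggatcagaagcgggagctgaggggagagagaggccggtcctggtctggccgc

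PDE6G (NM_002602), the rod inhibitory subunit, was the member that stood out. In p53-/- cells its log2 intensities were 11.71, 11.23 and 11.90 with INZ, against 5.87, 6.04 and 6.57 with DMSO. In p53+/+ cells they were 11.47, 11.92 and 11.12 with INZ, against 6.64, 6.51 and 6.91 with DMSO. The 6 INZ arrays were all high and the 6 DMSO arrays all near the median feature, whichever the genotype. The log2 difference was 5.45 in p53-/- cells, or 43.8-fold, and 4.82 in p53+/+ cells, or 28.2-fold. The lowest INZ array lay above the highest DMSO array by 4.66 in p53-/- cells and by 4.21 in p53+/+ cells. With any 1 of the 12 arrays left out, the difference stayed between 5.31 and 5.66 in p53-/- cells and between 4.61 and 5.01 in p53+/+ cells. PDE6G ranked 3 of 45033 features by its log2 difference in each genotype, behind 2 features that have no gene name here. The next named gene was AOC3, an amine oxidase, in p53-/- cells, at 3.09 or 8.52-fold. In p53+/+ cells it was TP53I3, at 4.13 or 17.5-fold on 1 of its features. These ranks and folds describe the values that chose PDE6G. Of all features 13.3% were higher on every INZ array than on any DMSO array in p53-/- cells and 7.39% in p53+/+ cells.

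**Figure D1:**
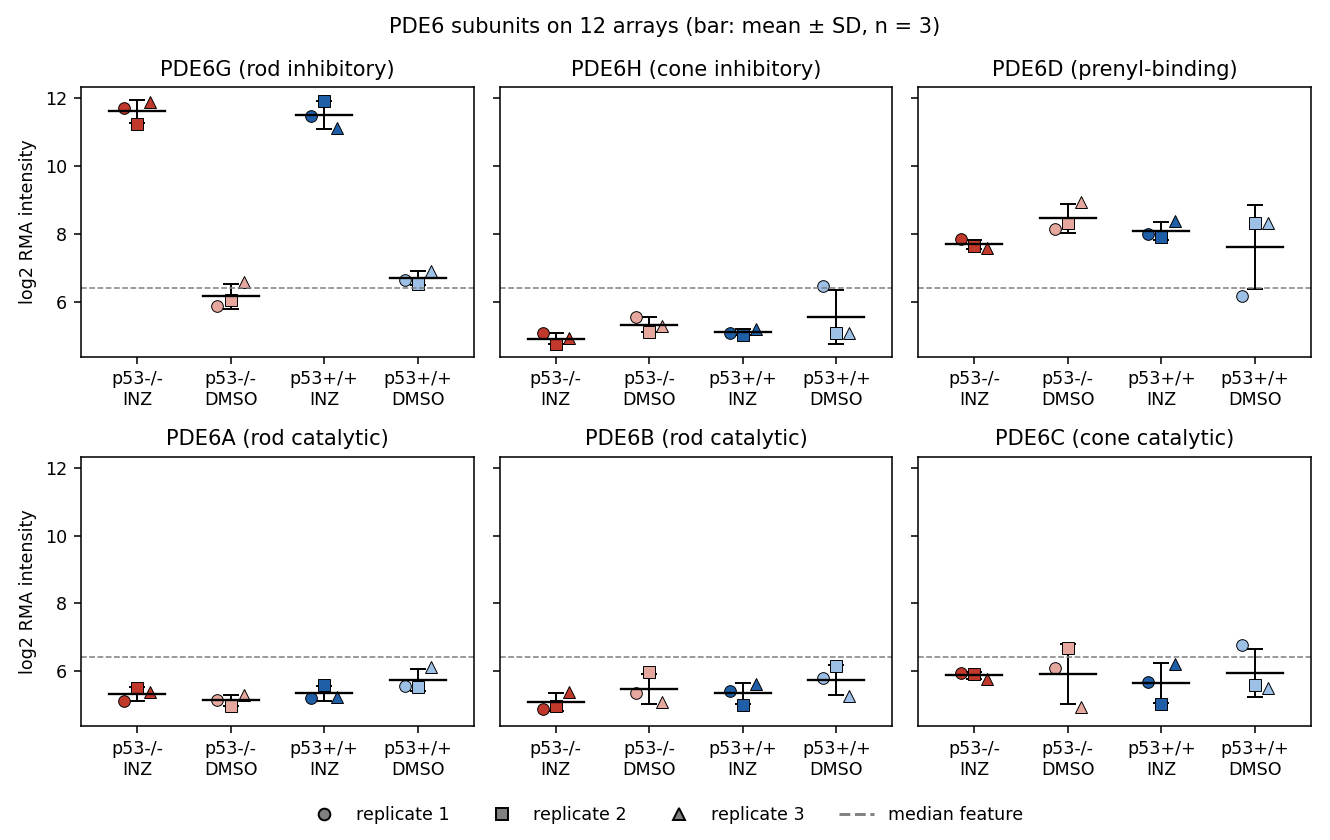
Log2 RMA intensity of the 6 PDE6 subunits (vertical axis) on the 12 arrays by group (horizontal axis), with a symbol for each replicate, a bar for the mean, whiskers for the SD (n = 3) and a dashed line at the median feature, 6.41. PDE6G lay between 11.12 and 11.92 on the 6 INZ arrays and between 5.87 and 6.91 on the 6 DMSO arrays, and no other subunit showed such a step.

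PDE6H (NM_006205), the cone counterpart of PDE6G, was dim on 11 of 12 arrays. In p53-/- cells it had log2 intensities of 5.07, 4.74 and 4.92 with INZ, against 5.55, 5.12 and 5.29 with DMSO. All 3 INZ values lay below all 3 DMSO values, by little. The p53+/+ cells gave 5.08, 5.03 and 5.20 with INZ, against 6.45, 5.07 and 5.08 with DMSO. The 6.45 was from p53+/+ DMSO replicate 1, which stood apart, and the other p53+/+ values overlapped. The log2 difference was -0.41 in p53-/- cells (limma, 95% CI -1.14 to 0.33, adjusted p = 0.668) and -0.43 in p53+/+ cells (95% CI -1.17 to 0.31, adjusted p = 0.594). Without p53+/+ DMSO replicate 1 the p53+/+ difference was 0.03, and it stayed negative without both arrays that stood apart.

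The catalytic subunits were dim too. PDE6A (NM_000440), a rod subunit, had log2 intensities of 5.12, 5.49 and 5.38 in p53-/- cells with INZ, against 5.15, 4.99 and 5.31 with DMSO. On the p53+/+ arrays it had 5.20, 5.59 and 5.25 with INZ, against 5.56, 5.55 and 6.12 with DMSO. The groups overlapped in both genotypes. The log2 difference was 0.18 in p53-/- cells (limma, 95% CI -0.39 to 0.75, adjusted p = 0.828) and -0.40 in p53+/+ cells (95% CI -0.96 to 0.17, adjusted p = 0.522). PDE6B (NM_000283), its rod partner, had 4.88, 4.99 and 5.39 in p53-/- cells with INZ, against 5.35, 5.97 and 5.10 with DMSO. In p53+/+ cells its values were 5.42, 5.01 and 5.62 with INZ, against 5.79, 6.15 and 5.27 with DMSO. Again the groups overlapped, and the difference was -0.39 in each genotype (limma, 95% CI -1.08 to 0.30 in both, adjusted p = 0.662 in p53-/- and 0.614 in p53+/+ cells).

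PDE6C (NM_006204), the cone catalytic subunit, had the widest spread of the catalytic subunits in 3 of the 4 groups, all but p53-/- with INZ. It had log2 intensities of 5.96, 5.93 and 5.76 in p53-/- cells with INZ, against 6.09, 6.70 and 4.96 with DMSO. The values of p53+/+ cells were 5.69, 5.03 and 6.23 with INZ, against 6.78, 5.59 and 5.50 with DMSO. The SD was 0.88 in p53-/- cells with DMSO and 0.71 in p53+/+ cells with DMSO (n = 3 each). Its log2 difference was -0.03 in p53-/- cells (limma, 95% CI -1.01 to 0.95, adjusted p = 0.987) and -0.31 in p53+/+ cells (95% CI -1.29 to 0.67, adjusted p = 0.801). The p53+/+ difference was 0.10 without p53+/+ DMSO replicate 1, -0.60 without p53+/+ INZ replicate 3 and -0.18 without both.

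PDE6D (NM_002601), the prenyl-binding subunit, was the only member other than PDE6G whose mean over the 12 arrays lay above the median feature, at 7.96. In p53-/- cells it had log2 intensities of 7.84, 7.65 and 7.57 with INZ, against 8.13, 8.31 and 8.93 with DMSO. Every INZ value lay below every DMSO value. With wild-type p53 it had 7.99, 7.90 and 8.38 with INZ, against 6.17, 8.33 and 8.32 with DMSO. The low value, 6.17, was again p53+/+ DMSO replicate 1. The log2 difference was -0.77 in p53-/- cells (limma, 95% CI -1.78 to 0.25, adjusted p = 0.523). In p53+/+ cells it was 0.48 (95% CI -0.53 to 1.49, adjusted p = 0.677), and -0.24 without p53+/+ DMSO replicate 1. Its INZ effect in p53-/- minus that in p53+/+ cells was -1.25 (95% CI -2.68 to 0.18, adjusted p = 1.00), and -0.53 without that array.

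No other subunit had a difference near that of PDE6G. In p53-/- cells 0 of the other 5 subunits passed the test, where 1.48% of all features did. In p53+/+ cells 0 of 5 passed, against 0.862% of all features. By unadjusted p under 0.05 the counts were also 0 of 5, against 13.6% and 14.4% of all features in p53-/- and p53+/+ cells. The 95% intervals of all 5 lay below the value of PDE6G. Since PDE6G was chosen for its rise, and no named feature rose more, this was likely for any gene and is no test. The highest upper limit was a rise of 1.93-fold in p53-/- cells, for PDE6C, and of 2.82-fold in p53+/+ cells, for PDE6D. Changes within a subunit's own interval were not excluded with 3 arrays per group. These limits are not limits of detection, because calls rested on adjusted p. Larger differences of other genes also went uncalled, such as 1.50 for NPPA in p53-/- cells (adjusted p = 0.0610 from limma). For PDE2A in p53+/+ cells it was 1.60 (adjusted p = 0.124). The median difference of the 5 was -0.39 in each genotype, against -0.03 over all features in each. PDE6D and PDE6H, 2 of 5, did not overlap and were lower with INZ in p53-/- cells, as were 12.5% of all features (two-sided exact permutation test, p = 0.1 for each, the smallest that 3 arrays against 3 allow). Averaged over both genotypes, the INZ effect was 5.14 or 35.2-fold for PDE6G. For the other 5 it lay between -0.42, for PDE6H, and -0.11, for PDE6A. Again 0 of 5 passed, against 5.68% of all features, with adjusted p between 0.337 and 0.846. By unadjusted p under 0.05 it was 0 of 5 against 22.1%.

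**Figure D2:**
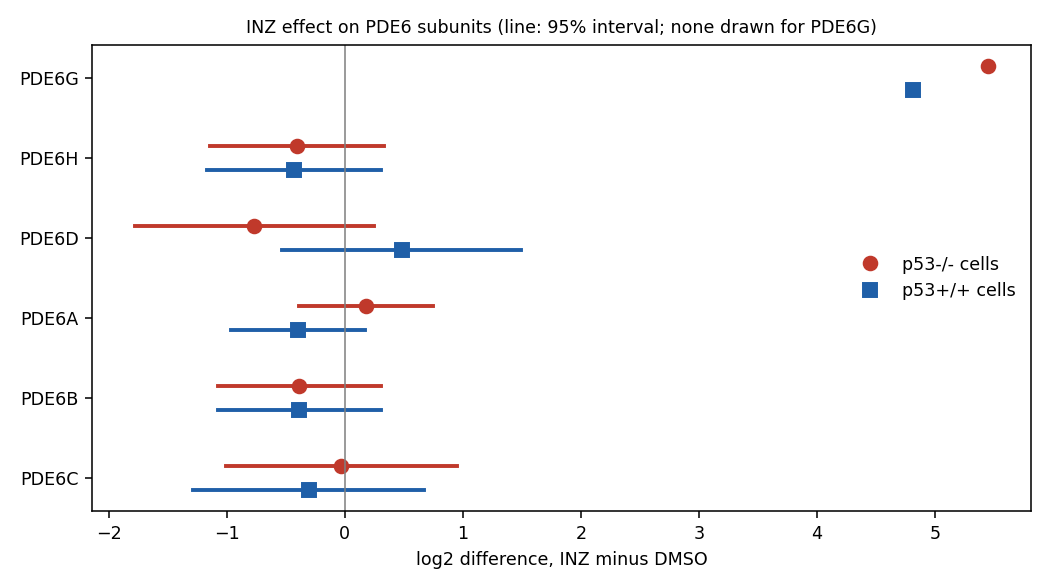
Log2 difference of INZ minus DMSO (horizontal axis) for each PDE6 subunit (vertical axis), with circles for p53-/- and squares for p53+/+ cells and lines for the 95% interval from limma. PDE6G lay at 5.45 and 4.82 and is drawn without an interval because it was chosen for this change, and every interval of the other subunits holds 0.

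The subunits were next compared between the genotypes. With DMSO, PDE6G averaged 6.16 ± 0.37 in p53-/- cells (SD, n = 3) against 6.69 ± 0.20 in p53+/+ cells (SD, n = 3), with overlap. With INZ it averaged 11.61 in p53-/- cells and 11.50 in p53+/+ cells, a difference of 0.11 that was smaller than the SD of either group, 0.35 and 0.40. Its INZ effect was 0.64 larger in p53-/- than in p53+/+ cells on the log2 scale, which is described only. None of the other 5 passed the test of genotype with DMSO (0.211% of all features did), of genotype with INZ (0.484%) or of the difference in the INZ effect (0.0178%). By unadjusted p under 0.05 the counts were 1 of 5 with DMSO (12% of all features), 0 of 5 with INZ (10.3%) and 0 of 5 for the difference (4.71%). PDE6A came nearest. With DMSO its log2 difference was -0.59 in p53-/- against p53+/+ cells (limma, 95% CI -1.16 to -0.02, adjusted p = 0.402) and the groups did not overlap, as in 8.77% of all features, lower in p53-/- cells. With INZ the same difference was -0.02. PDE6D did not overlap with INZ, with a log2 difference of -0.40 in p53-/- against p53+/+ cells (adjusted p = 0.823 from limma), where 8.21% of all features were lower without overlap.

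Genes that act with PDE6 in photoreceptors were then read from lists chosen by function. Of 30 genes of the phototransduction cascade 28 had a named feature, and 0 passed the test in either genotype or in the mean effect. By unadjusted p under 0.05 it was 1, 2 and 2 of 28, against 13.6%, 14.4% and 22.1% of all features in p53-/- cells, p53+/+ cells and the mean effect. The median difference was -0.17 in p53-/- and -0.14 in p53+/+ cells. GNB1, GNB3, GUCA1B and GNB5 lay above the median feature. GNB1 and GNB5 encode G protein beta subunits that many tissues use. GNB3, the cone transducin beta subunit, had the smallest p of the list, with differences of 0.87 in p53-/- and 1.36 in p53+/+ cells and a mean effect of 1.11 (adjusted p = 0.0952 from limma). Without the 2 arrays that stood apart it passed in p53-/- cells (0.87, adjusted p = 0.0433), where 5.61% of all features then did, and the p53+/+ difference was 0.33. GNAT1, the rod transducin alpha subunit that acts on PDE6 gamma, differed by -0.49 and -0.54 in p53-/- and p53+/+ cells. GUCY2F, a retinal guanylate cyclase, differed by -0.21 and -0.52, and OPN1LW, the red cone opsin, by -0.01 and -0.77.

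Of 12 genes of photoreceptor identity 0 passed in p53-/- cells, in p53+/+ cells or in the mean effect, and 0, 2 and 3 had an unadjusted p under 0.05, against 13.6%, 14.4% and 22.1% of all features. CRX, PAX6 and ROM1 lay above the median feature. CRX, the factor whose core was searched for, had log2 intensities of 6.56 to 6.86 in p53-/- cells with INZ, against 6.06 to 7.59 with DMSO. The p53+/+ cells gave 6.10 to 7.24 with INZ, against 6.78 to 8.92 with DMSO. PAX6, an eye field factor, had a mean effect of 0.63 (adjusted p = 0.0745 from limma) and that of ROM1, a disc rim protein, was 0.72 (adjusted p = 0.159). NR2E3, a rod factor, had a mean effect of -0.60 (adjusted p = 0.113), and that of RAX, a retinal homeobox factor, was -0.30 (adjusted p = 0.361).

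Prenylation and assembly genes make, carry and release the lipid-modified PDE6 catalytic subunits. Of 16 such genes 14 had a named feature, and 0 passed in either genotype, with 2 and 1 at an unadjusted p under 0.05 in p53-/- and p53+/+ cells, against 13.6% and 14.4% of all features. RAB28, a prenylated GTPase and cargo of the PDE6D carrier, rose in the mean effect, by 1.00 (adjusted p = 0.0495 from limma), the 1 call in 14, where 3.1% of all features were called higher. It had log2 intensities of 8.48 to 9.24 in p53-/- cells with INZ, against 7.76 to 8.52 with DMSO. On the p53+/+ arrays it had 8.56 to 8.85 with INZ, against 6.47 to 8.13 with DMSO. The call was lost in 15 of 21 other settings, among them the fit with the replicate number as a block (adjusted p = 0.0517), the fit without the 2 arrays that stood apart (adjusted p = 0.0801) and the fits without any 1 array other than p53+/+ DMSO replicate 3. The mean effects of PGGT1B, a geranylgeranyl transferase subunit, and of RP2, another gene of this list, were 0.67 and 0.45. That of UNC119, a carrier of acylated transducin, was -0.55, and none of the 3 passed.

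Genes that make or read cyclic GMP outside the retina came next. Of 17 measured, 0 passed in either genotype, with 1 and 3 at an unadjusted p under 0.05 in p53-/- and p53+/+ cells, against 13.6% and 14.4% of all features. NPPA, which encodes atrial natriuretic peptide, a ligand of a guanylate cyclase receptor, rose in the mean effect, by 0.98 (adjusted p = 0.0416 from limma), the 1 call in 17, where 3.1% of all features were called higher. It had log2 intensities of 8.65 to 9.27 in p53-/- cells with INZ, against 6.87 to 7.83 with DMSO. In p53+/+ cells its values were 8.44 to 9.44 with INZ, against 8.31 to 9.11 with DMSO, and these overlapped. Its difference was 1.50 in p53-/- cells (adjusted p = 0.0610) and 0.46 in p53+/+ cells (adjusted p = 0.597), and the mean effect was lost in 12 of 21 other settings. These included the removal of any 1 array but p53+/+ DMSO replicate 1 and p53+/+ INZ replicate 3. It passed in p53-/- cells without the 2 arrays that stood apart (adjusted p = 0.0116) and with the replicate number as a block (adjusted p = 0.0205). NOS1 and NOS2, nitric oxide synthases, and GUCY2C, the guanylate cyclase of gut epithelium, had mean effects of -0.49, -0.52 and -0.35, and none passed.

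The other cyclic nucleotide phosphodiesterases were read as well, although PDE6G was chosen for its rise and no named feature rose more in either genotype. Of 18 genes in other families 0 passed in either genotype, with 4 in each at an unadjusted p under 0.05, against 13.6% of all features in p53-/- and 14.4% in p53+/+ cells. Their differences lay between -0.99 and 0.66 in p53-/- cells and between -1.22 and 1.60 in p53+/+ cells. PDE4B, a cyclic AMP phosphodiesterase, fell in the mean effect, by 0.98 on the log2 scale (adjusted p = 0.0134 from limma), the 1 call in 18, where 2.58% of all features were called lower. It had log2 intensities of 8.73 to 9.32 in p53-/- cells with INZ, against 9.72 to 9.88 with DMSO. The values of p53+/+ cells were 8.55 to 9.15 with INZ, against 9.65 to 10.37 with DMSO, so neither genotype overlapped. This call was lost only where a 2-fold change was also asked for. PDE2A, an enzyme that cyclic GMP stimulates, had the largest difference in p53+/+ cells, 1.60 (adjusted p = 0.124), and 0.21 in p53-/- cells. PDE1A and PDE1B, calmodulin-dependent enzymes, had mean effects of -0.49 and -0.83 (adjusted p = 0.181 and 0.0734). Of 6 signalling proteins reported to bind PDE6 gamma outside the retina, among them GRK2, SRC, GRB2, DNM2 and MAPK3, all lay above the median feature and 0 passed in either genotype or in the mean effect, with 0, 0 and 1 at an unadjusted p under 0.05, against 13.6%, 14.4% and 22.1% of all features. The mean effect of DNM2 was 0.99 (adjusted p = 0.267), and 0.30 without the 2 arrays that stood apart.

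**Figure D3:**
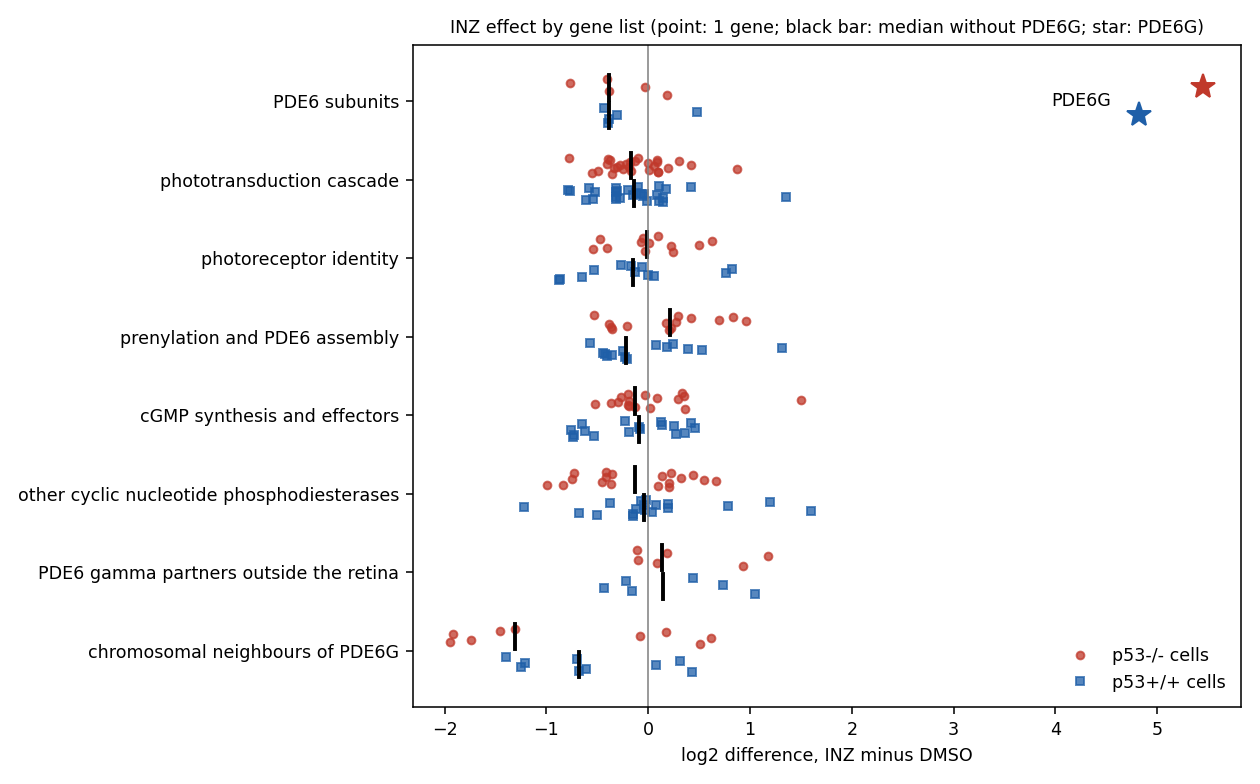
Log2 difference of INZ minus DMSO (horizontal axis) for each gene of 8 lists (vertical axis), with circles for p53-/- and squares for p53+/+ cells, a black bar for the median without PDE6G and stars for PDE6G. PDE6G, chosen for its rise, lay at 5.45 and 4.82, beyond every gene of the lists, and its chromosomal neighbours had medians of -1.31 and -0.68.

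PDE6G lies in a dense stretch of chromosome 17, so the 5 protein-coding genes on each side of it in the RefSeq gene table were read. The table is of GRCh38.p14, and the build behind the array's features is not given in the sources used here. TSPAN10, a tetraspanin gene, ends 1704 bases from PDE6G and OXLD1 starts 1909 bases from it on the other side. Of the 10 neighbours 9 had a named feature. None was called higher with INZ. In p53-/- cells 3 of 9 were called lower, against 0.997% of all features, and in p53+/+ cells 1 of 9 was, against 0.333%. In the mean effect 5 of 9 were called lower, against 2.58%. Of the 9, 7 lay above the median feature, so brighter features are the closer background. With dim features left out, 587 of 22517 were called lower in p53-/- cells, 176 in p53+/+ cells and 1467 in the mean effect, which are larger shares. In each genotype 5 of 9 were lower on every INZ array than on any DMSO array, against 12.5% of all features in p53-/- and 8.51% in p53+/+ cells. The median difference was -1.31 in p53-/- and -0.68 in p53+/+ cells.

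MRPL12, a mitochondrial ribosomal protein gene, had log2 intensities of 11.24 to 11.43 in p53-/- cells with INZ, against 13.16 to 13.35 with DMSO, and fell by 1.91 (adjusted p = 0.00160 from limma). With wild-type p53 it had 11.88 to 12.36 with INZ, against 13.18 to 13.45 with DMSO, and fell by 1.21 (adjusted p = 0.0353). The p53+/+ call was lost in 13 of 22 other settings, where the adjusted p reached 0.320. These were the fit of the 6 p53+/+ arrays alone, the fit without the 2 arrays that stood apart, where the difference was -1.17 (adjusted p = 0.102), and the removal of any 1 array other than p53+/+ DMSO replicate 3. The p53-/- call was kept in all 22.

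ARL16, a small GTPase gene, had 7.62 to 8.10 in p53-/- cells with INZ, against 9.59 to 9.88 with DMSO, and fell by 1.94 (adjusted p = 0.00217 from limma). FAAP100, a Fanconi anaemia core complex gene, had 8.35 to 8.88 in p53-/- cells with INZ, against 10.04 to 10.63 with DMSO, and fell by 1.74 (adjusted p = 0.00636). Both were also lower in each p53+/+ INZ array than in each p53+/+ DMSO array, with differences of -0.68 and -0.62 that did not pass the test. The test of the difference in the INZ effect did not pass for any neighbour, where 0.0178% of all features passed. By unadjusted p under 0.05 it was 3 of 9, against 4.71% of all features. For p53-/- against p53+/+ cells with INZ it was 5 of 9, against 10.3%. In that comparison 4 of 9 were lower in p53-/- cells without overlap, against 8.21% of all features, and none was called.

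The nearest neighbours on both sides moved opposite to PDE6G. OXLD1, an oxidoreductase-like gene, had 8.52 to 9.62 in p53-/- cells with INZ, against 10.47 to 10.80 with DMSO, and 9.74 to 10.66 in p53+/+ cells with INZ, against 10.77 to 11.44 with DMSO. It fell by 1.08 in the mean effect (adjusted p = 0.0228 from limma), but did not pass once replicate 1 or 2 of p53-/- DMSO, replicate 3 of p53-/- INZ or the 2 arrays that stood apart were removed (adjusted p between 0.0533 and 0.0640). Its difference in p53-/- cells was -1.46 (adjusted p = 0.0582), which passed without the 2 arrays (adjusted p = 0.0127) and with the replicate number as a block (adjusted p = 0.0233). TSPAN10 had 5.13 to 5.64 in p53-/- cells with INZ, against 5.87 to 7.76 with DMSO, and 4.90 to 5.53 in p53+/+ cells with INZ, against 6.01 to 7.03 with DMSO. It fell by 1.35 in the mean effect (adjusted p = 0.0197), and its mean over the 12 arrays lay below the median feature. It did not pass once replicate 1 (adjusted p = 0.0523) or replicate 2 (adjusted p = 0.0506) of p53-/- INZ was removed. ACTG1, the cytoplasmic gamma actin gene, NPLOC4, a cofactor of the segregase VCP, and HGS, an endosomal sorting gene, had mean effects of 0.47, 0.24 and 0.00 and did not pass. Without the 2 arrays that stood apart these were -0.12, 0.04 and -0.50. FSCN2, a photoreceptor fascin gene, differed by 0.61 in p53-/- and -1.25 in p53+/+ cells and did not pass, and by -0.39 in p53+/+ cells without those arrays.

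**Figure D4:**
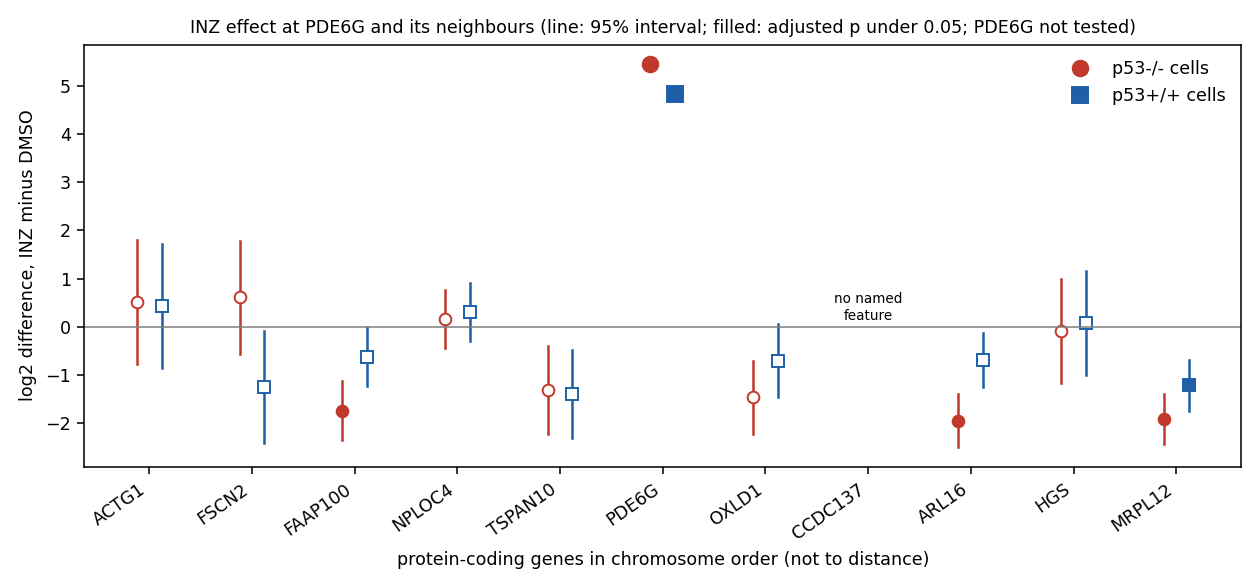
Log2 difference of INZ minus DMSO (vertical axis) for PDE6G and the 5 protein-coding genes on each side in chromosome order (horizontal axis, not to distance), with circles for p53-/- and squares for p53+/+ cells, 95% intervals from limma and filled symbols for an adjusted p under 0.05. PDE6G, not tested, lay at 5.45 and 4.82, between TSPAN10 and OXLD1, which lay below 0 in both genotypes.

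Finally, features were ranked by how closely their log2 values followed those of PDE6G over the 12 arrays, as a description. Pearson correlations over 4 groups with a large step mostly measure that step, and all values share the 12 arrays. Of 3 unnamed features that ranked above every named gene, the highest were BX537414 (r = 0.993) and BC106884 (r = 0.992). BX537414 had log2 intensities of 11.29 to 12.01 in p53-/- cells with INZ, against 5.58 to 6.13 with DMSO, and 11.44 to 12.07 in p53+/+ cells with INZ, against 5.49 to 6.25 with DMSO. BC106884 had 11.49 to 11.93 in p53-/- cells with INZ, against 5.72 to 5.92 with DMSO, and 11.48 to 11.98 in p53+/+ cells with INZ, against 5.62 to 5.97 with DMSO. Both changed by more than PDE6G, 59.1-fold and 58.5-fold in p53-/- cells and 55.0-fold and 59.9-fold in p53+/+ cells.

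Among the 17184 other named genes, the 10 closest were IL17RB, an interleukin-17 receptor (r = 0.967), TMEM106C, a membrane protein gene (r = 0.955), MICA, a stress ligand of the NKG2D receptor (r = 0.953), SEPTIN4, a septin with a proapoptotic isoform (r = 0.948), TUBA4A, an alpha tubulin (r = 0.944), HTATIP2 (r = 0.939), CPT1B, a carnitine palmitoyltransferase (r = 0.931), SLC27A3, an acyl-CoA synthetase family gene (r = 0.929), KCNS3, a potassium channel modifier (r = 0.928), and TUBB6, a beta tubulin (r = 0.923). All 10 were higher on each INZ array than on each DMSO array of the same genotype, as their choice by likeness to PDE6G makes likely. Their steps were far smaller. SEPTIN4 differed by 1.77 in p53-/- and 2.19 in p53+/+ cells, IL17RB by 1.45 and 1.75, and TUBB6 by 0.58 and 0.68. Without the 2 arrays that stood apart 5 of the 10 stayed among the 10 closest, and by Spearman's rank correlation 0 did. No other subunit followed PDE6G upwards, with r of -0.10 for PDE6A, -0.52 for PDE6B, -0.22 for PDE6C, -0.14 for PDE6D and -0.50 for PDE6H over the same arrays. Without the 2 arrays that stood apart r was -0.78 for PDE6D and -0.65 for PDE6H, and -0.03, -0.55 and -0.18 for PDE6A, PDE6B and PDE6C.

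**Figure D5:**
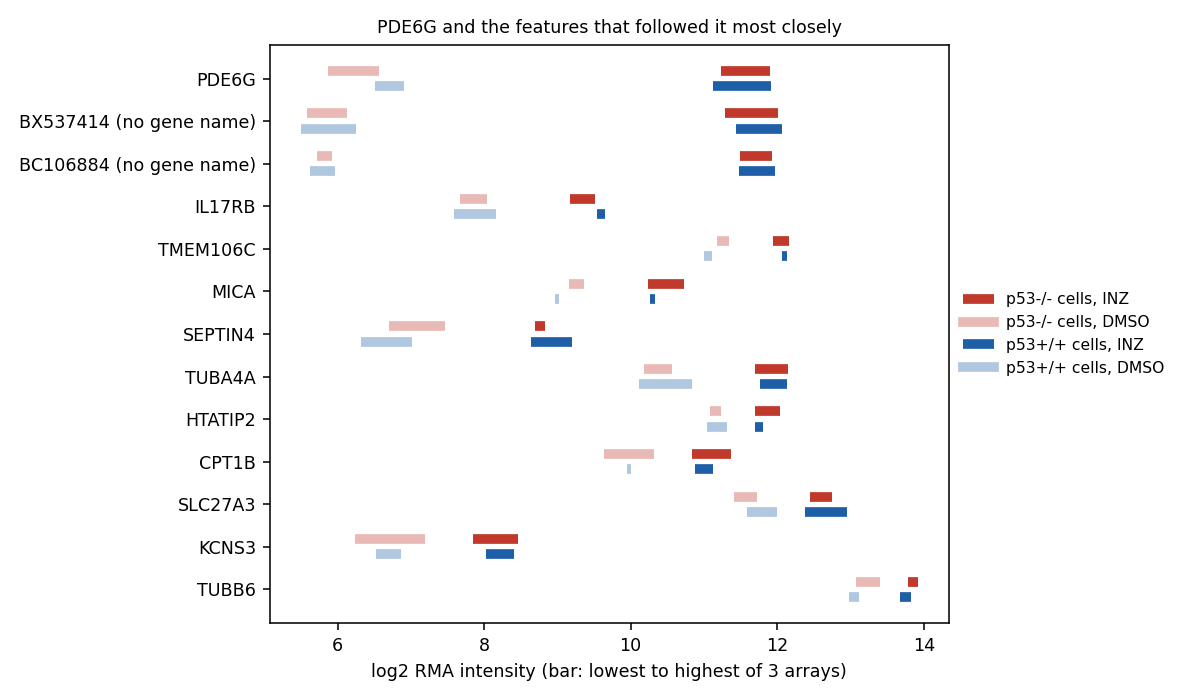
Lowest to highest log2 RMA intensity of 3 arrays (horizontal axis) for PDE6G with 2 unnamed features and the 10 named genes that followed it most closely (vertical axis), other unnamed features left out, in full colour with INZ and pale with DMSO, red for p53-/- and blue for p53+/+ cells. The 2 features without a gene name had steps as large as PDE6G, and SEPTIN4, the named gene with the largest step of the 10, differed by 1.77 and 2.19.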

How the data were processed

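RNA of HCT116 cells was read on 12 one-colour NimbleGen arrays. The table that the authors deposited holds 1 RMA intensity per feature and array, linear and between 16.2 and 61942. For RMA's settings, the annotation build and detection calls, nothing is given in the sources used here. Each intensity was log2-transformed without a pseudocount. The number of arrays limits the precision. Features were named from the platform annotation (18188) or by accession (678), and 26167 stayed unnamed. Of 1349 genes with several features, the brightest stood for the gene.

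In R 4.3.3, limma 3.58.1 fitted 1 mean per group to each of 45033 features over the 12 arrays, and p values were adjusted by Benjamini-Hochberg and read at 0.05. The fit was tested on simulated data. Single subunits were also compared by two-sided exact permutation tests. The members, lists and alternatives were chosen with earlier results of these data known. Named are all subunits, the 4 genes of each list with the smallest p in the mean INZ effect, all 10 neighbours, the 10 named features most like PDE6G and 3 p53 label checks; other list genes were named after their values were seen. Some genes that this rule names are not reported here. Alternatives were quantile normalization, median centring, limma's trend option, leaving out dim features, a replicate block, array weights, a 2-fold minimum, the mean of a gene's features, only the 6 arrays compared and arrays left out. Replicate numbers were not taken to pair the arrays. Figures used Python 3.11.15 and matplotlib 3.10.9.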

Additional observations from a re-analysis of the deposited data

Results flagged for a closer look

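TP53I3, a redox enzyme gene induced by p53, differed in its INZ effect between the genotypes by -4.47 on the log2 scale (p53-/- minus p53+/+, adjusted p = 0.000982 from limma's interaction), the only such difference among the genes named here. The corresponding value of PDE6G was 0.64.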

How the results depend on the processing

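The INZ effect of PDE6G moved by less than 1 pooled SD of its 4 groups under all 65 alternative values computed for it. Several settings, such as limma's trend option and the 2-fold minimum, cannot change a difference of group means. These are also the values that chose PDE6G, so this is a description and not a test. None of the other 5 subunits was called in any of 626 alternative values over 30 comparisons. Of these 626 values, 42 changed sign. With quantile normalization the sign turned for PDE6A in p53-/- against p53+/+ cells with INZ (0.027) and for the difference in the INZ effect of PDE6B (-0.022), which was -0.034 with median centring, where that of PDE6H was -0.010. Without the 2 arrays that stood apart the sign turned for PDE6D with INZ in p53+/+ cells (-0.39), for the difference in the INZ effect of PDE6H (-0.39), and for PDE6C (0.37) and PDE6H (0.24) in p53-/- against p53+/+ cells with DMSO. With array weights these 4 values were -0.071, -0.22, 0.29 and 0.11.

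With single arrays left out, these log2 differences ranged over both signs. For INZ in p53-/- cells PDE6C ranged from -0.51 to 0.36. For INZ in p53+/+ cells PDE6C ranged from -0.60 to 0.10, PDE6D from -0.24 to 0.84 and PDE6H from -0.66 to 0.028. For the mean effect PDE6C ranged from -0.41 to 0.036 and PDE6D from -0.50 to 0.038. For the difference in the INZ effect PDE6B ranged from -0.21 to 0.25, PDE6C from -0.21 to 0.67 and PDE6H from -0.43 to 0.26. In p53-/- against p53+/+ cells with DMSO, PDE6C ranged from -0.43 to 0.44 and PDE6H from -0.45 to 0.24, and with INZ PDE6A ranged from -0.10 to 0.10 and PDE6C from -0.073 to 0.52.

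The counts of features called depended more on the fit, and the cause was not tested. For INZ in p53-/- cells, with 666 features called as reported, the fit of only the 6 arrays compared called 2705, that without the 2 arrays 2525 and that with array weights 2996. Single arrays left out gave 229 (p53-/- INZ replicate 3) to 1313 (p53+/+ INZ replicate 3). For INZ in p53+/+ cells, with 388 features, the 6 arrays alone gave 9, the fit without the 2 arrays 166 and single arrays left out 81 (p53+/+ INZ replicate 1) to 1185 (p53+/+ DMSO replicate 3). For the difference in the INZ effect, with 8 features, limma with a trend gave 15 and array weights 30. For the mean effect, with 2559, a 2-fold minimum gave 1675 and single arrays left out 1228 (p53-/- INZ replicate 3) to 3972 (p53+/+ DMSO replicate 3). For the genotypes with DMSO, with 95, the 6 arrays alone gave 6, array weights 190 and single arrays left out 17 (p53-/- DMSO replicate 1) to 525 (p53+/+ DMSO replicate 3). For the genotypes with INZ, with 218, the 6 arrays alone gave 129, the fit without the 2 arrays 4298, array weights 2469 and single arrays left out 59 (p53-/- INZ replicate 3) to 1652 (p53+/+ INZ replicate 3).

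Of the neighbours of PDE6G, 5 were called lower in p53-/- cells with array weights. In p53+/+ cells 0 were with the 6 arrays alone or without the 2 arrays, and 0 to 2 with single arrays left out. Of the 10 named genes most like PDE6G, 5 stayed without the 2 arrays and 0 by rank correlation. For the other lists, the counts called moved as follows. In the mean effect the 1 prenylation gene called became 0 with quantile normalization, median centring, the replicate block or without the 2 arrays, and 0 to 2 with single arrays left out. The 1 cyclic GMP gene became 0 with quantile normalization or a 2-fold minimum, and 0 or 1 with single arrays left out. The 1 other phosphodiesterase became 0 with a 2-fold minimum, and 1 to 2 with single arrays left out. Of photoreceptor identity 1 in place of 0 was called without dim features or with array weights. With INZ in p53-/- cells 1 in place of 0 was called of the cascade without the 2 arrays, of the prenylation genes with array weights, and of the cyclic GMP genes without dim features, with the block, the 6 arrays alone, without the 2 arrays or with array weights. In p53+/+ cells 1 other phosphodiesterase was called without dim features. Where single arrays left out moved another count of these other lists, it ranged over 0 to 1. The count of neighbours called lower then ranged over 3 to 4 in p53-/- cells and 4 to 5 in the mean effect. Same-numbered arrays correlated between -0.135 and 0.332 in their deviations. For replicate 3 of p53+/+ INZ and DMSO the value was 0.332, against at most 0.152 with another number. For replicate 3 of p53-/- INZ and DMSO it was -0.135, against at most 0.0736. Pairing by number was thus neither shown nor excluded. With the replicate block the counts in the 6 comparisons were 812, 376, 7, 3061, 87 and 212, against 666, 388, 8, 2559, 95 and 218 without it, RAB28 lost its call in the mean effect (adjusted p = 0.0517), and NPPA and OXLD1 gained one in p53-/- cells (adjusted p = 0.0205 and 0.0233). With 3 arrays per group, 4 of the 6 subunits below the median feature, and no detection calls, small changes of dim subunits may be missed.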
